A study of Homo sapiens with 8 samples.

Results

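The SRC-family tyrosine kinases and the enzymes that switch them on and off were followed as 9 genes in TMD8 lymphoma cells. The genes were chosen by name for their role, with earlier results of these data known. They were the kinases FYN, BLK, FGR and LCK, the inhibitory kinase CSK and its membrane adaptor PAG1, and the phosphatases PTPN6, PTPN22 and PTPRC. All 9 were found by symbol among the 25066 genes of the deposited expression table, and 7 passed the level filter that every test across genes used. FGR and LCK fell under that filter and are described by their reads. LYN, another SRC-family kinase of B cells, is not among the genes described.

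TMD8 is an established human line of diffuse large B cell lymphoma of the activated B cell type, which lives on signals from its B cell receptor. All cells carried Cas9 from a lentivirus together with a stably expressed guide RNA. The guide either targeted KLHL14, an adaptor of a cullin-based ubiquitin ligase (sgKLHL14, genotype label KLHL14(-/-)), or was a control (sgCTRL, KLHL14(+/+)). Cells received ibrutinib, a covalent inhibitor of the kinase BTK, at 2 nM or its solvent DMSO for 24 h. This gave 4 groups of 2 libraries: sgKLHL14 in ibrutinib, sgCTRL in ibrutinib, sgKLHL14 in DMSO and sgCTRL in DMSO. The labels name no separate cultures or clones, so each p-value covers only variation among the libraries at hand, which may be technical. Library totals ran from 12333876 to 23467110 reads.

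SRC-family kinases sit at the inner face of the plasma membrane and phosphorylate the tails of the B cell receptor once antigen is bound, which brings in the kinase SYK and, further on, BTK. A phosphate on their C-terminal tail, placed by CSK, folds them shut, and PAG1 anchors CSK close to them. PTPRC, also known as CD45, removes that phosphate and so keeps the kinases ready to fire. PTPN22 and PTPN6, also known as LYP and SHP-1, remove phosphates that activated kinases carry or place, and PTPN6 is brought to the membrane by inhibitory receptors. All of this takes place on proteins, whereas the values here are mRNA levels.

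The libraries had the markers of B cells and lacked the defining markers of T cells. All 10 B cell markers examined passed the level filter. CD3D, CD3E, CD7, CD28 and TRAT1 had 0 reads in every library, as had the myeloid genes S100A8, S100A9, MPO and FCN1. In all, 4 of 14 T cell markers, 3 of 14 myeloid markers and 0 of 8 markers of natural killer cells passed. Of 10 markers of epithelium and fibroblasts 6 passed, and all 10 together summed to 62.5 to 65.3 RPM (reads per 1000000 reads of the library) with sgKLHL14 in ibrutinib and 68.2 to 69.1 with sgCTRL in ibrutinib, against 55.4 to 56.9 and 66.99 to 67.7 in DMSO. Among them the matrix genes COL1A1 (0.91 with sgKLHL14 and 1.06 with sgCTRL) and DCN (1.55 and 1.94) rose in log2 level with ibrutinib under either guide (limma adjusted p at most 0.000902). KRT8 of the same list fell under either guide (-0.60 with sgKLHL14 and -0.47 with sgCTRL, limma adjusted p = 0.0015 and 0.0104). CDH1 passed with sgKLHL14 only (0.24, adjusted p = 0.0127), and COL1A2 and PDGFRB passed under neither guide. The part of these markers in the results was not tested. The 10 B cell markers together took 6322 to 6541 RPM with sgKLHL14 in ibrutinib and 6371 to 6429 with sgCTRL in ibrutinib, against 4139 to 4250 and 4252 to 4357 in DMSO. With sgKLHL14 9 of these 10 rose and EBF1 fell (-0.38, limma adjusted p = 0.000101). With sgCTRL 8 rose and EBF1 fell (-0.34, adjusted p = 0.000384). Over all tested genes 19.9% rose with sgKLHL14 and 18.1% with sgCTRL. In bulk RNA, more cells of a kind and more RNA per cell cannot be told apart. The libraries labelled sgKLHL14 had no less KLHL14 mRNA than the controls, with log2 levels of 13.16 and 13.16 against 12.30 and 12.30 with sgCTRL in ibrutinib, and of 12.19 and 12.33 against 12.07 and 12.06 in DMSO. Small insertions or deletions at a cut site do not show in reads per gene, so they cannot serve as a check on the genotype, and directions by guide are those of the labels.

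FYN, PTPN22 and PTPRC were the members that passed the test with ibrutinib under either guide, and the DNA just upstream of their starts is shown for that reason. The sequences are the 250 bases before a gene start in RefSeq on GRCh38.p14, written 5′ to 3′ along the gene's strand. Capitals mark the letters AGGAAG, the core that ETS factors such as PU.1 bind, or GGGCGG, the GC box, on either strand, so that CTTCCT and CCGCCC are the same motifs on the other strand.
FYN: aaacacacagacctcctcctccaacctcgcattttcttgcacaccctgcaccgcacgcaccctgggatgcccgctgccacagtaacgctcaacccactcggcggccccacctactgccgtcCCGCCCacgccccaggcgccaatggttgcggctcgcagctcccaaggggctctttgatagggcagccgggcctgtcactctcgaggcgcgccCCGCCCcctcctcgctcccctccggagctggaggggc
PTPN22: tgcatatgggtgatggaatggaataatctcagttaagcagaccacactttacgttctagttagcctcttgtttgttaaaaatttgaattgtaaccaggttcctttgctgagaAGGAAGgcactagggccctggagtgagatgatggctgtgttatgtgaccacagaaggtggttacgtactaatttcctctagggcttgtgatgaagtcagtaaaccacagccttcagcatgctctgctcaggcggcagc
PTPRC: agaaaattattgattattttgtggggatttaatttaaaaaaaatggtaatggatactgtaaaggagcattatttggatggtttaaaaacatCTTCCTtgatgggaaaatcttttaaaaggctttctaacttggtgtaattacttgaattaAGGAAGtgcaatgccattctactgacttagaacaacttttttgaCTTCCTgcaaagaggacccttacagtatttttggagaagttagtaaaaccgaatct

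The FYN window lies at chr6:111873453-111873702 on the minus strand and is the most upstream of the 4 FYN starts in the table. The PTPN22 window lies at chr1:113871713-113871962 on the minus strand, and the PTPRC window at chr1:198638790-198639039 on the plus strand. FYN had 68.8% G and C and 2 GC boxes without an AGGAAG. PTPN22 had 45.6% G and C and 1 AGGAAG, and PTPRC had 31.2% and 3, neither with a GC box. AGGAAG occurred in 28.7% and GGGCGG in 42.6% of the 35116 windows of this length in RefSeq. Matches were also sought on both strands for TGANTCA (AP-1), GAAA with 2 free bases and GAAA again (the interferon response element) and TATAAA (the TATA box), which 6.6%, 3.0% and 10.7% of windows hold, and none was found in these 3 windows. A match is a description of letters and not a bound site, and reads per gene do not show which start the cells used.

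The ibrutinib comparison asks how mRNA of these kinases and of their regulators differed between ibrutinib and DMSO. The activity of BTK or of any other kinase is not shown by mRNA levels. Under either guide FYN was lower in ibrutinib and PTPN22 and, to a smaller extent, PTPRC were higher, while BLK and CSK did not pass. With sgKLHL14, 2 of the 7 tested members rose (PTPN22 and PTPRC) and 2 fell (FYN and PTPN6), where 39.3% of all 12533 tested genes passed (19.9% higher and 19.4% lower, limma-trend, Benjamini-Hochberg adjusted p under 0.05). With sgCTRL, 2 rose and FYN fell, where 35.1% of all genes passed (18.1% higher and 17% lower). At those background shares, calls on 4 and 3 of 7 genes do not set the members apart as a group. The members' median log2 change was -0.05 with sgKLHL14 and 0.08 with sgCTRL, and that of all tested genes was 0.01 and 0.02. Averaged over guides, a contrast added after the values were seen, 5 of 7 members passed (FYN, PAG1, PTPN6, PTPN22 and PTPRC), beside 52.4% of all tested genes.

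FYN, a kinase best known from T cells and neurons, had log2 levels of 8.06 and 8.21 with sgKLHL14 in ibrutinib, against 8.93 and 8.88 in DMSO. With sgCTRL it had 8.21 and 8.14 in ibrutinib, against 9.05 and 8.85 in DMSO. Every ibrutinib library was thus below every DMSO library. The log2 change was -0.77 with sgKLHL14 (95% interval -1.01 to -0.54, limma adjusted p = 2.15e-05) and -0.78 with sgCTRL (-1.01 to -0.54, adjusted p = 2.34e-05). In linear terms FYN stood at 0.586 of its DMSO level with sgKLHL14 and at 0.583 with sgCTRL. These values rested on 135 to 181 reads in ibrutinib libraries and 265 to 415 in DMSO libraries. The change ranked among the lowest 3.23% of all tested genes with sgKLHL14 and the lowest 3.27% with sgCTRL. Its difference between guides was 0.01 (95% interval -0.33 to 0.34, limma adjusted p = 0.998).

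**Figure D1:**
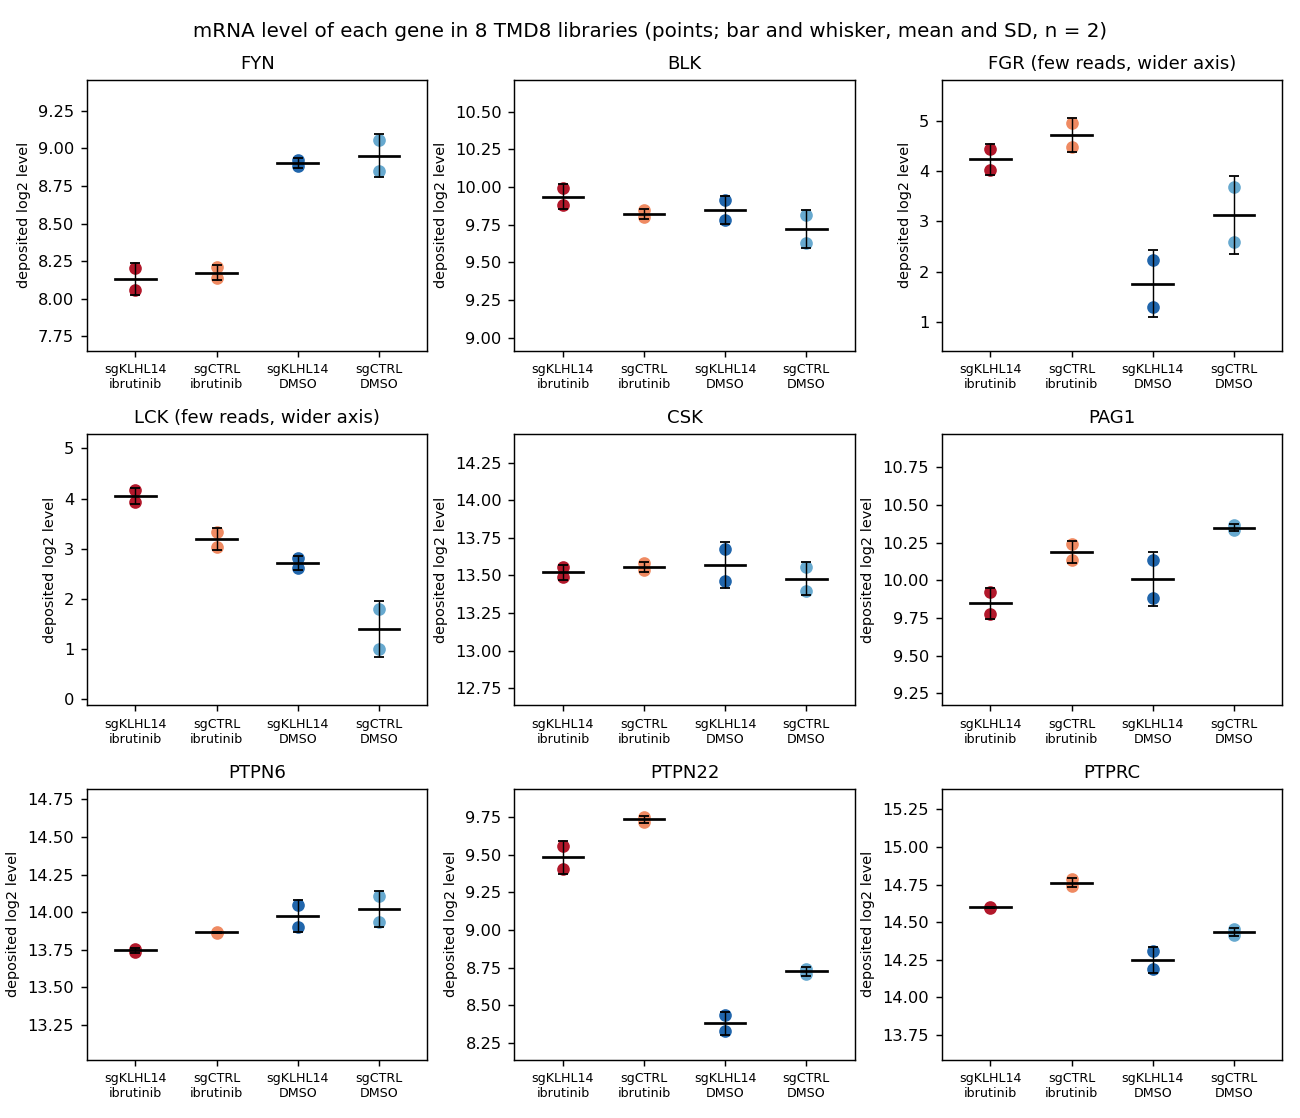
Deposited log2 level (y axis) of each of the 9 genes in the 8 libraries, by guide and treatment (x axis). Points are libraries, and bars with whiskers are means with SD (n = 2). All panels span the same range of log2 units except FGR and LCK, which have few reads and a wider axis. FYN sits lower and PTPN22 and PTPRC higher in all 4 ibrutinib libraries than in the 4 DMSO libraries, and PAG1 is lower with sgKLHL14 than with sgCTRL.

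PTPN22 is a phosphatase that, in T cells, dephosphorylates the activation loop of LCK and FYN and binds CSK. Its log2 levels were 9.56 and 9.41 with sgKLHL14 in ibrutinib, against 8.43 and 8.33 in DMSO. With sgCTRL they were 9.75 and 9.72 in ibrutinib, against 8.74 and 8.71 in DMSO. The ibrutinib and DMSO libraries did not overlap, and the lowest ibrutinib library was still well above the highest DMSO library. PTPN22 rose by 1.10 with sgKLHL14 (95% interval 0.90 to 1.30, limma adjusted p = 3.21e-08), a 2.15-fold gain. With sgCTRL it rose by 1.01 (0.81 to 1.21, adjusted p = 1.07e-07), a 2.01-fold gain. It had 310 to 526 reads in ibrutinib libraries and 214 to 359 in DMSO libraries. The difference between the responses was 0.09 (95% interval -0.19 to 0.38, limma adjusted p = 0.972).

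PTPRC, the phosphatase that opens SRC-family kinases, rose less in proportion. Its log2 level was 14.60 and 14.60 with sgKLHL14 in ibrutinib, against 14.19 and 14.31 in DMSO. With sgCTRL it was 14.74 and 14.79 in ibrutinib, against 14.42 and 14.46 in DMSO. No ibrutinib library fell to the level of a DMSO library. The log2 change was 0.35 with sgKLHL14 (95% interval 0.23 to 0.48, limma adjusted p = 0.000121), 1.28-fold, and 0.33 with sgCTRL (0.20 to 0.45, adjusted p = 0.00028), 1.26-fold. Under either guide the change was higher than that of 82.9% of all tested genes. Reads per gene do not separate the splice forms of PTPRC, nor those of FYN.

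PTPN6 passed with sgKLHL14 only, and a difference between guides was not found. Its log2 levels were 13.74 and 13.76 with sgKLHL14 in ibrutinib, against 14.05 and 13.90 in DMSO. With sgCTRL they were 13.87 and 13.86 in ibrutinib, against 14.11 and 13.94 in DMSO. All ibrutinib libraries lay below all DMSO libraries, by a narrow margin. PTPN6 fell by 0.23 with sgKLHL14 (95% interval -0.37 to -0.09, limma adjusted p = 0.00886), and with sgCTRL the change was -0.16 (-0.29 to -0.02, adjusted p = 0.0723). The responses differed by -0.07 (95% interval -0.27 to 0.12, adjusted p = 0.965). The sgKLHL14 call ended when sgKLHL14 DMSO replicate 1 was left out (change -0.16, adjusted p = 0.102), with no level filter (0.0569) and with no variance trend (0.0811). The sgCTRL change was called without sgCTRL DMSO replicate 2 (-0.24, adjusted p = 0.021), and was at -0.07 without replicate 1. It was called as well without either sgKLHL14 DMSO library (0.0402 each), with quantile scaling (0.0405) and with only its 2 groups in the fit (0.0247).

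BLK, a SRC-family kinase of the B lineage, and CSK, the kinase that shuts the family down, had the flattest profiles. BLK had log2 levels of 9.99 and 9.88 with sgKLHL14 in ibrutinib, against 9.91 and 9.78 in DMSO. With sgCTRL it had 9.80 and 9.84 in ibrutinib, against 9.81 and 9.63 in DMSO. Treated and untreated libraries overlapped under either guide. The change of BLK was 0.09 with sgKLHL14 (95% interval -0.09 to 0.27, limma adjusted p = 0.447) and 0.10 with sgCTRL (-0.08 to 0.28, adjusted p = 0.398). CSK had 13.49 and 13.56 with sgKLHL14 in ibrutinib, against 13.68 and 13.46 in DMSO. With sgCTRL it had 13.58 and 13.53 in ibrutinib, against 13.56 and 13.40 in DMSO. Its libraries overlapped as well. The change of CSK was -0.05 with sgKLHL14 (95% interval -0.20 to 0.10, limma adjusted p = 0.626) and 0.08 with sgCTRL (-0.07 to 0.23, adjusted p = 0.406). The intervals leave room for changes of up to about the size seen in PTPN6, so small effects are not shown to be absent.

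**Figure D2:**
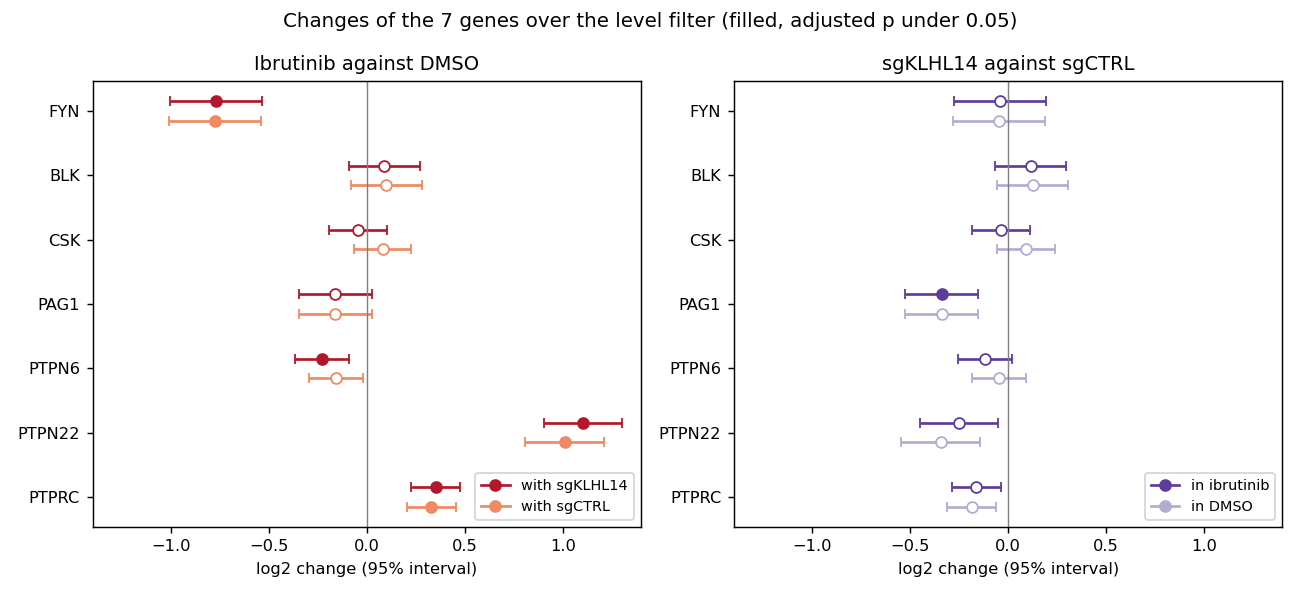
Log2 change with its 95% interval (x axis) of the 7 genes over the level filter (y axis), for ibrutinib against DMSO under each guide (left) and for sgKLHL14 against sgCTRL in each treatment (right). Filled points had a limma adjusted p under 0.05. FYN, PTPN22 and PTPRC were called under either guide, and by guide only PAG1 in ibrutinib was called.

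The guide comparison asks what the guide against KLHL14 changed at a given treatment. In ibrutinib 1 of 7 members passed, PAG1, the adaptor that holds CSK at the membrane, where 2.38% of all tested genes did (1.59% higher and 0.79% lower). In DMSO 0 of the 7 passed in limma, where 1.64% of genes did (0.782% higher and 0.862% lower). In either treatment 3 members (PAG1, PTPN22 and PTPRC) had a negative change with an unadjusted 95% interval that left out 0. At that unadjusted level 1611 of the 12533 tested genes passed in ibrutinib and 1728 in DMSO, in either direction. With 7 genes, a single call does not mark the group.

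PAG1 had log2 levels of 9.78 and 9.92 with sgKLHL14 in ibrutinib, against 10.14 and 10.24 with sgCTRL in ibrutinib. In DMSO it had 9.88 and 10.14 with sgKLHL14, against 10.33 and 10.37 with sgCTRL. Within each treatment no sgKLHL14 library reached a sgCTRL library. The log2 change by guide was -0.34 in ibrutinib (95% interval -0.53 to -0.16, limma adjusted p = 0.0455) and again -0.34 in DMSO (-0.53 to -0.16, adjusted p = 0.0578), which is 0.79 of the control level. The single call rested on the setting: it ended in 6 of the 8 fits that left out a library (adjusted p up to 0.455) and with no level filter (0.196). It ended as well with no variance trend (0.255), with quantile scaling (0.06), with median scaling (0.0543) and with voom (0.0726). The DMSO difference in turn was called with a robust prior (0.0434), with voom (0.0382), with only its 2 groups in the fit (0.0347) and without sgKLHL14 DMSO replicate 2 (-0.47, adjusted p = 0.00897).

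Averaged over treatments, a contrast added after the values were seen, 3 of 7 members were lower with sgKLHL14, where 5.55% of all tested genes passed. PAG1 fell by 0.34 (95% interval -0.47 to -0.21, limma adjusted p = 0.00184), and its levels of 9.78 to 10.14 with sgKLHL14 and 10.14 to 10.37 with sgCTRL touched but did not overlap. This call held with any of the 8 libraries left out (change -0.40 to -0.28, adjusted p at most 0.0175). PTPN22 fell by 0.30 (-0.44 to -0.16, adjusted p = 0.011) and PTPRC by 0.17 (-0.26 to -0.09, adjusted p = 0.0173). PTPN22 lost the call without sgCTRL ibrutinib replicate 1 (adjusted p = 0.0584) or 2 (0.0506) and without sgKLHL14 ibrutinib replicate 2 (0.0527). PTPRC lost it without sgCTRL DMSO replicate 2 (0.0531), sgKLHL14 DMSO replicate 1 (0.0658) and sgCTRL ibrutinib replicate 1 (0.0737) or 2 (0.153). The 4 single contrasts and their averages are built from the same 4 groups and so are not independent of each other.

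With the drug, PAG1 did not pass under either guide. Its change was -0.16 with each (95% interval -0.35 to 0.02, limma adjusted p = 0.157 with sgKLHL14 and 0.165 with sgCTRL), and the ibrutinib and DMSO libraries overlapped with sgKLHL14. Without sgKLHL14 DMSO replicate 1 the sgKLHL14 value was -0.29 and passed (adjusted p = 0.025). Averaged over guides, PAG1 fell by 0.16 in ibrutinib (95% interval -0.29 to -0.03, limma adjusted p = 0.0362), with overlapping libraries. That call was lost in 5 of the 8 fits that left out a library, namely without sgCTRL DMSO replicate 1 (0.0623) or 2 (0.09), sgKLHL14 DMSO replicate 2 (-0.10, 0.192), sgCTRL ibrutinib replicate 1 (0.139) or sgKLHL14 ibrutinib replicate 1 (0.138). FYN did not pass by guide, with -0.04 in ibrutinib (95% interval -0.28 to 0.19, limma adjusted p = 0.933) and -0.05 in DMSO (-0.28 to 0.19, adjusted p = 0.893). BLK was at 0.11 in ibrutinib and 0.13 in DMSO, CSK at -0.04 and 0.09, and PTPN6 at -0.12 and -0.04, with adjusted p-values of 0.49 to 0.901. None of the 7 ibrutinib responses differed between guides in limma (adjusted p at least 0.936, against 3 calls or 0.0239% among all tested genes, 0.016% higher and 0.00798% lower).

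FGR and LCK were close to the limit of detection in all libraries. FGR, a kinase of myeloid cells and of some B cells, had 10 and 10 reads with sgKLHL14 in ibrutinib, against 4 and 2 in DMSO. With sgCTRL it had 19 and 11 reads in ibrutinib, against 3 and 11 in DMSO. These were 0.594 to 1.15 RPM in the 4 ibrutinib libraries and 0.09 to 0.475 in the 4 DMSO libraries, without overlap. LCK, the SRC-family kinase of T cells, had 11 and 7 reads with sgKLHL14 in ibrutinib, against 6 and 5 in DMSO. With sgCTRL it had 5 and 5 reads in ibrutinib, against 1 and 3 in DMSO. That is 0.303 to 0.653 RPM in ibrutinib libraries and 0.0741 to 0.256 in DMSO libraries.

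**Figure D3:**
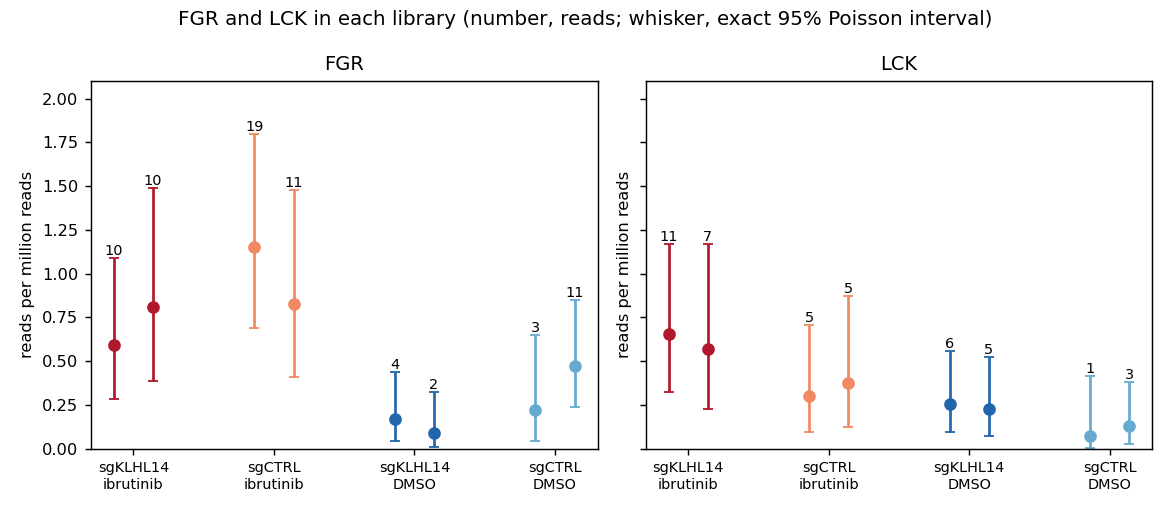
RPM (y axis) of FGR (left) and LCK (right) in each library, by group (x axis). Numbers are reads, and whiskers are exact 95% Poisson intervals, which cover counting error only. For either gene the 4 ibrutinib libraries lie above the 4 DMSO libraries, and many of the intervals overlap.

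The mean log2 difference of ibrutinib against DMSO within guides was 2.03 for FGR and 1.56 for LCK. Both had an exact two-sided permutation p of 0.0556, the smallest that the 36 arrangements allow, so no p under 0.05 could be reached. In the fit without a level filter, over 19243 genes, FGR passed with sgKLHL14 (2.48, limma adjusted p = 0.0146) and not with sgCTRL (1.59, adjusted p = 0.0859). LCK there passed with sgCTRL (1.78, adjusted p = 0.0283) and not with sgKLHL14 (1.34, adjusted p = 0.0725). Of those 19243 genes, 4131 passed with sgKLHL14 and 3582 with sgCTRL. By guide, LCK was higher with sgKLHL14 by a mean of 1.09 and FGR was lower by 0.93 within treatments, each again at the smallest possible p of 0.0556. The 14 T cell markers found summed to 9.08 to 9.73 RPM with sgKLHL14 in ibrutinib and 9.32 to 9.45 with sgCTRL in ibrutinib, against 6.31 to 7.33 and 6.15 to 6.78 in DMSO. The 14 myeloid markers summed to 46.8 to 47.5 and 50.2 to 52.0 in ibrutinib, against 44.2 to 48.0 and 42.9 to 44.6 in DMSO. The defining T cell receptor genes CD3D and CD3E were at 0 throughout, as were S100A8, S100A9 and MPO of myeloid cells. Of 4 T cell markers tested in limma, CD4 rose under either guide (1.32 with sgKLHL14, 1.74 with sgCTRL) and CD8A with sgKLHL14 (0.74). None fell. Of 3 myeloid markers, CD68 (0.23) and FCGR1A (1.64) rose with sgCTRL, and VCAN fell under either guide (-2.16 with sgKLHL14, -1.53 with sgCTRL). Over all tested genes 19.9% rose with sgKLHL14 and 18.1% with sgCTRL. The part of these markers in the FGR and LCK values was not tested.

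Levels of different genes can be set side by side only per length. Scaled reads per kb of the transcript that the table names, with lengths from GENCODE 29, had a median over the 8 libraries of 6335 for PTPN6, 4382 for PTPRC and 4318 for CSK. The ranges of PTPRC (3463 to 5238) and CSK (3907 to 4730) overlapped, so their order is not set, while PTPN6 (5707 to 7376) lay above both. BLK followed at 349, PTPN22 at 152, PAG1 at 105 and FYN at 104, the last 3 with overlapping ranges. FGR at 5.85 and LCK at 3.59 came last. The regulators CSK, PTPN6 and PTPRC were thus more abundant as mRNA than BLK and FYN.

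Over the 8 libraries PTPN22 and PTPRC had a Pearson correlation of 0.951, and FYN had -0.93 with PTPN22 and -0.848 with PTPRC. PAG1 was most opposed to BLK (-0.849). These values describe 8 libraries that share treatments and guides. The genes with the profile most like PTPN22 were PBX2, CYBB and PLCB2 (0.996 to 0.999). Those most like FYN were VEGFA, NFE2L1 and MFSD6 (0.994 to 0.995), and those most like PTPRC were CLCN5, KMO and RIPK1 (0.992 to 0.994). Such likeness is common in a response this broad, since 895 of 10027 genes searched had a correlation over 0.9 with PTPN22, 1065 with FYN and 585 with PTPRC.

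Other SRC-related kinases were also unequal in their response. SRC, the founding member, fell by 1.18 with sgKLHL14 (limma adjusted p = 4.89e-06) and by 1.21 with sgCTRL (adjusted p = 4.2e-06). FRK rose with sgKLHL14 (0.69, adjusted p = 0.00189) and was at 0.35 with sgCTRL (0.0934). YES1 fell with sgCTRL (-0.44, adjusted p = 0.00449) and was at -0.25 with sgKLHL14 (0.0781). SRC, FRK and YES1 did not pass by guide in limma in either treatment (adjusted p at least 0.101).

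Among 24 other kinases, phosphatases, adaptors and ligases that act on SRC-family kinases, 21 passed the filter. With sgKLHL14 9 rose and 6 fell, and with sgCTRL 6 rose and 7 fell (medians 0.23 and 0.03). Over all tested genes 19.9% rose and 19.4% fell with sgKLHL14, and 18.1% rose and 17% fell with sgCTRL. PTPRJ, a receptor phosphatase also known as CD148 that acts on the same sites as PTPRC, rose by 0.82 with sgKLHL14 and 0.72 with sgCTRL (limma adjusted p = 7.77e-08 and 4.44e-07). CBLB, a ubiquitin ligase that restrains lymphocyte signalling, rose by 1.09 and 0.90 (adjusted p = 1.06e-08 and 1.49e-07). EZR, which links membrane complexes to actin, rose by 0.54 and 0.41 (adjusted p = 3.47e-07 and 1.09e-05). PTPN7, a phosphatase of MAP kinases, fell by 0.84 and 0.60 (adjusted p = 2.6e-08 and 2.07e-06), and SH2D2A, an adaptor that binds LCK in T cells, fell by 1.15 and 0.91 (adjusted p = 3.47e-07 and 7.58e-06). MATK, a close relative of CSK, had 0 reads in all libraries. By guide, DOK3 (-0.27, adjusted p = 0.0495) and CBLB (-0.36, adjusted p = 0.0434) were lower with sgKLHL14 in DMSO, and none of the 21 passed in ibrutinib in limma.

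**Figure D4:**
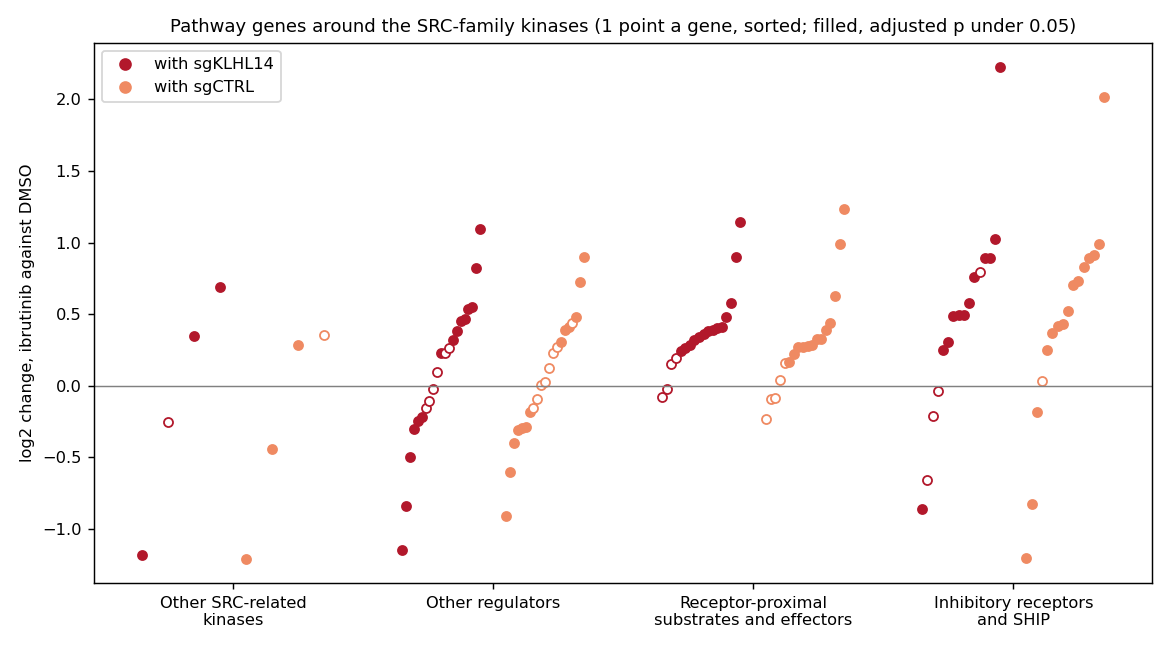
Log2 change of ibrutinib against DMSO (y axis) of the genes of 4 pathway lists (x axis) that passed the level filter, with sgKLHL14 (left in each list) and sgCTRL (right). Each point is a gene, sorted by its change, and filled points had a limma adjusted p under 0.05. Substrates and effectors near the receptor were called only upwards (14 of 18 with sgKLHL14 and 13 of 18 with sgCTRL), whereas kinases and regulators went either way.

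The receptor parts and enzymes on which SRC-family kinases act, or which lie just beyond them, went up. Of 18 such genes 14 rose with sgKLHL14 and 13 with sgCTRL, and 0 fell in limma, beside 19.9% and 18.1% of all tested genes that rose (medians 0.35 and 0.27). The pathway lists were chosen with earlier results of these data known, so such shares are no independent test of a list. CD79B, whose cytoplasmic tail the kinases phosphorylate, rose by 1.15 with sgKLHL14 and 1.24 with sgCTRL (limma adjusted p = 1.62e-10 and 6.38e-11). DAPP1, an adaptor, rose by 0.90 and 0.99 (adjusted p = 1.98e-08 and 5.66e-09), and BANK1, a scaffold, by 0.58 and 0.63 (adjusted p = 2.37e-07 and 8.22e-08). By guide, CR2, a complement receptor, was higher with sgKLHL14 (1.14 in ibrutinib and 0.76 in DMSO). PIK3AP1, an adaptor of phosphoinositide 3-kinase, was lower (-0.24 and -0.23), and the limma adjusted p-values of both genes ran from 0.000825 to 0.0492. These counts moved with the summed B cell markers given above, whose list shares genes such as CD79A, CD79B and BLNK with this one, and their part in the result was not tested.

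Inhibitory receptors that recruit PTPN6 or the lipid phosphatase SHIP, together with SHIP itself (INPP5D), were another list with more members higher than lower. Of 16 tested, 11 rose and PDCD1 fell with sgKLHL14, and 12 rose and 3 fell with sgCTRL, namely PDCD1 (-0.82), LAIR1 (-1.20) and LILRB1 (-0.18). Over all tested genes 19.9% rose and 19.4% fell with sgKLHL14, and 18.1% rose and 17% fell with sgCTRL. The list's medians were 0.49 and 0.47, and this list too was chosen with earlier results of these data known. The summed B cell markers, whose list shares CD22 with this one, were higher in ibrutinib too, and their part in the result was not tested. CEACAM1, an adhesion receptor with inhibitory motifs, rose by 2.22 with sgKLHL14 and 2.02 with sgCTRL (limma adjusted p = 6.66e-12 and 1.77e-11). FCRL3, an Fc receptor-like protein, rose by 1.02 and 0.89 (adjusted p = 1.22e-10 and 7.93e-10). SIT1, an adaptor that binds phosphatases, rose by 0.89 and 0.91 (adjusted p = 4.29e-08 and 3.02e-08), and CD72 by 0.89 and 0.70 (adjusted p = 2.62e-09 and 6.58e-08). PTPN6, the phosphatase these receptors recruit, had the small negative changes given above. By guide in ibrutinib, FCRL4 (-0.61, adjusted p = 0.00551) and CD5 (-0.49, adjusted p = 0.0317) were lower with sgKLHL14, and in DMSO CD22 was higher (0.24, adjusted p = 0.0417) and FCRL3 lower (-0.24, adjusted p = 0.0434).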

How the data were processed

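RNA-seq libraries of 4 groups with 2 libraries each were analysed. Per the submitters' processing notes, bcl2fastq, STAR and HTSeq were used on the build hg19. Tool versions and settings, and whether counting used strand, were not given in the sources used here, so reads of FYN, BLK, PAG1, PTPN22 and PTPRC may include those of long noncoding genes that RefSeq places over them. The deposited values are log2 of reads per gene scaled by library. Each matched a whole number of reads within 6e-04 on the log2 scale (100% of values above 0, a test that is informative only at low reads), and recovered reads summed to 99.995% to 100.005% of the deposited totals, which stand in a row of their own that was kept out of all tests. The table had 0 columns of other samples.

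Genes with a mean at or above the median of all genes (log2 4.20) were kept, 12533 in all. The 4 group means were fitted with limma 3.58.1 in R 4.3.3 (limma-trend, with 4 residual degrees of freedom and 14.9 from the prior), with Benjamini-Hochberg adjustment over all kept genes. The fit was tested on simulated data. FGR and LCK were tested by exact permutation, which, like the averaged contrasts and levels per kb, was chosen after their values were seen. Alternatives were other filters, pseudocount, priors, scalings, voom, fits of 2 groups, a replicate block and leaving out each library. All 9 genes are described whatever their p, list genes by smallest p, and neighbours by highest correlation. Genes and lists were chosen with earlier results of these data known. Upstream sequences are from RefSeq on GRCh38.p14, with 7 of the 9 genes in that table, and transcript lengths are from GENCODE 29 by the accession in the deposited table.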

Additional observations from a re-analysis of the deposited data

How the results depend on the processing

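Of 8 member changes that passed, none turned in sign in 144 refits, and 14 of these refits ended the call, all of them for PTPN6 with sgKLHL14 or PAG1 by guide in ibrutinib. FYN, PTPN22 and PTPRC kept their calls with ibrutinib under either guide in every refit. The number of members called by guide in ibrutinib was 0 rather than 1 with no level filter, no variance trend, quantile or median scaling and with voom. In DMSO it was 1 rather than 0 with a robust prior, with voom and with only the 2 groups compared. Leaving out a library gave 0 to 1 members in ibrutinib and 0 to 2 in DMSO.

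Counts over all genes by guide moved more: in DMSO 206 became 47 with no level filter and 25 with no variance trend, in ibrutinib 298 became 155 and 95, and the 3 genes whose responses differed became 0 in either case (limma; 713 had an unadjusted p under 0.05). Leaving out a library gave 64 to 530 genes by guide in DMSO, 123 to 363 in ibrutinib, and 2902 to 4631 for ibrutinib with sgCTRL. With so few libraries, changes near 0 have no settled sign, and the cause of these shifts was not tested.

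The labels do not say whether libraries with the same replicate number were paired. Deviations of same-numbered libraries correlated between groups at -0.055 to 0.122, which does not settle it. With the replicate block 368 genes passed by guide in DMSO, 5 for the difference in response, and 2 members by guide in DMSO (PAG1, adjusted p = 0.0126, and PTPN22, 0.0445).

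Values that turned in sign were all of changes that had not passed. For the difference between responses they were -0.0023 for PTPRC with quantile scaling, 0.002 for BLK with median scaling and -0.0183 for FYN with voom. Leaving out each library gave, for the same difference, -0.094 to 0.108 for FYN, -0.1015 to 0.0795 for BLK, -0.1585 to 0.0095 for PTPN6 and -0.0385 to 0.0835 for PTPRC. It gave -0.154 to 0.059 for CSK with ibrutinib under sgKLHL14 and -0.0372 to 0.0693 averaged over guides. By guide in DMSO it gave -0.149 to 0.053 for FYN, -0.015 to 0.198 for CSK and -0.129 to 0.039 for PTPN6. By guide in ibrutinib FYN ran from -0.1155 to 0.0335, and averaged over treatments FYN ran from -0.095 to 0.006 and CSK from -0.0252 to 0.0813.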
